A study of Mus musculus with 10 samples.

Results

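Skeletal muscle contractile and fiber genes were followed in RNA from mouse inner ears at E16.5, an embryonic stage late in gestation. The genes were 59 named members that build or run the sarcomere, the calcium release system, the motor endplate and the energy supply of muscle fibers, and all 59 were found by symbol among the 15472 genes of the deposited table. The study asked how the inner ear transcriptome differs when both copies of Tbx1 carry the nmf219 allele. It holds 5 wild-type (WT, +/+) and 5 nmf219/nmf219 libraries, all from C57BL/6 mice of that age and all from whole inner ear RNA. Tbx1 encodes a T-box transcription factor. The labels do not say whether a library came from 1 embryo or from pooled embryos, so each p-value rests on how far the libraries differ among themselves, which may be technical.

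Skeletal muscle contracts when myosin heavy chains in the thick filament pull on actin in the thin filament, and troponin and tropomyosin make that step depend on calcium released from the sarcoplasmic reticulum. Fibers of the embryo first use an embryonic and then a neonatal (perinatal) myosin heavy chain, and adult fibers use a slow or a fast one, with matching slow and fast forms of troponin, calsequestrin, calsarcin and myosin-binding protein. The inner ear has no skeletal muscle of its own; the stapedius and the tensor tympani of the middle ear lie close to it.

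The muscle genes varied together from library to library, and their mean was higher in nmf219 for 59 of 59 genes. For Cox8b, Mybpc2 and Smtnl1 that direction was fixed by the table's own lower limit, as described below. The genotype ranges of every one of these genes overlapped, and WT replicate 3 was the second richest library in muscle RNA. None of the 59 passed the test of genotype over all genes. The embryonic myosin Myh3 was the main myosin heavy chain in every library, per length of exon the neonatal Myh8 came after it in 9 of 10, and the adult fast chains Myh1 and Myh2 were low.

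Depth was 35293445 to 40942278 reads in listed genes in nmf219 libraries and 31244799 to 41875972 in WT libraries, and 1 read was worth a normalized value of 0.0239 to 0.0317. Tbx1 itself was at 20.7 to 29.3 in WT and 23.0 to 28.1 in nmf219, which overlap; since nmf219 may leave the amount of Tbx1 RNA as it is, these values are no check of the labels. All 3 Y-linked genes examined were at a value of 1 or more in WT replicates 3, 4 and 5 and below 1 in the other 7 libraries. Y-linked RNA was thus uneven between the genotypes, with no nmf219 library at that level. WT replicates 3 and 4 were also the WT libraries with the most and the least muscle RNA. Any part of sex in the results was not tested. The sample descriptions carry numbers in 2 ranges, 2162 to 2169 (nmf219 replicates 1, 2 and 3, WT replicates 2 and 5) and 2199 to 2208 (nmf219 replicates 4 and 5, WT replicates 1, 3 and 4), and what the numbers stand for is not stated.

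The 59 genes together held 0.621, 0.296, 0.165, 0.340 and 0.188% of the reads in listed genes in nmf219 replicates 1 to 5. In WT replicates 1 to 5 they held 0.124, 0.0788, 0.407, 0.0390 and 0.0756%. The mean share was 0.322% ± 0.182 (SD, n = 5) in nmf219 and 0.145% ± 0.150 (SD, n = 5) in WT. WT replicates 1, 2, 4 and 5 lay below every nmf219 library, and WT replicate 3 lay above all nmf219 libraries except replicate 1. Within the lower range of description numbers the nmf219 libraries (0.165 to 0.621%) lay above the WT libraries (0.0756 and 0.0788%), and within the higher range the groups overlapped (0.188 and 0.340% against 0.0390 to 0.407%). In bulk RNA, fewer cells of a type and less RNA per cell cannot be told apart.

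**Figure D1:**
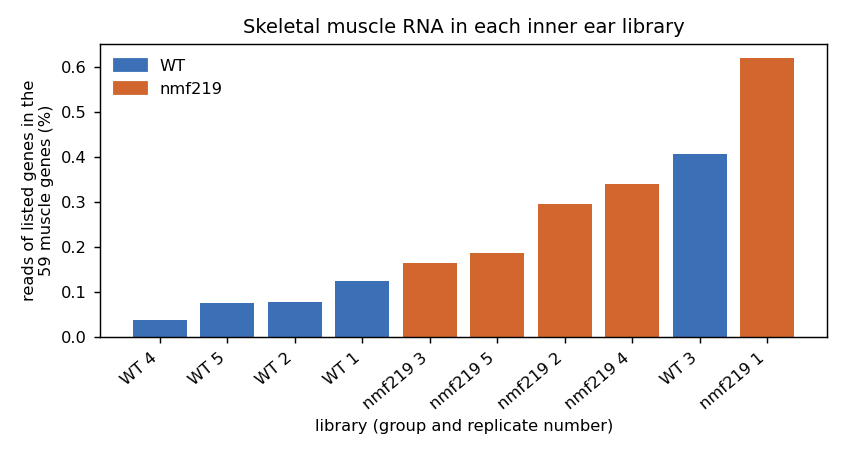
Share of reads of listed genes that fell in the 59 muscle genes (vertical axis, percent), 1 bar per library, ordered by share, WT in blue and nmf219 in orange. The bars run from 0.0390% in WT replicate 4 to 0.621% in nmf219 replicate 1, and WT replicate 3 is the only WT bar among the nmf219 bars.

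The shared variation ran through nearly every member. The first principal component of log2(value + 1) held 96.3% of the variance between libraries over the 59 genes and 42.8% over all 15472 genes. nmf219 replicate 1 was the highest library for 50 members, WT replicate 3 for 8 and nmf219 replicate 2 for 1. WT replicate 4 was the lowest for 54 members. The highest library exceeded the lowest by a median of 16.6-fold, and over the 58 members above 0 in all libraries the ratio ran from 2.31 for Chrna1 to 127 for Atp1b4 and 216 for Ckm.

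**Figure D2:**
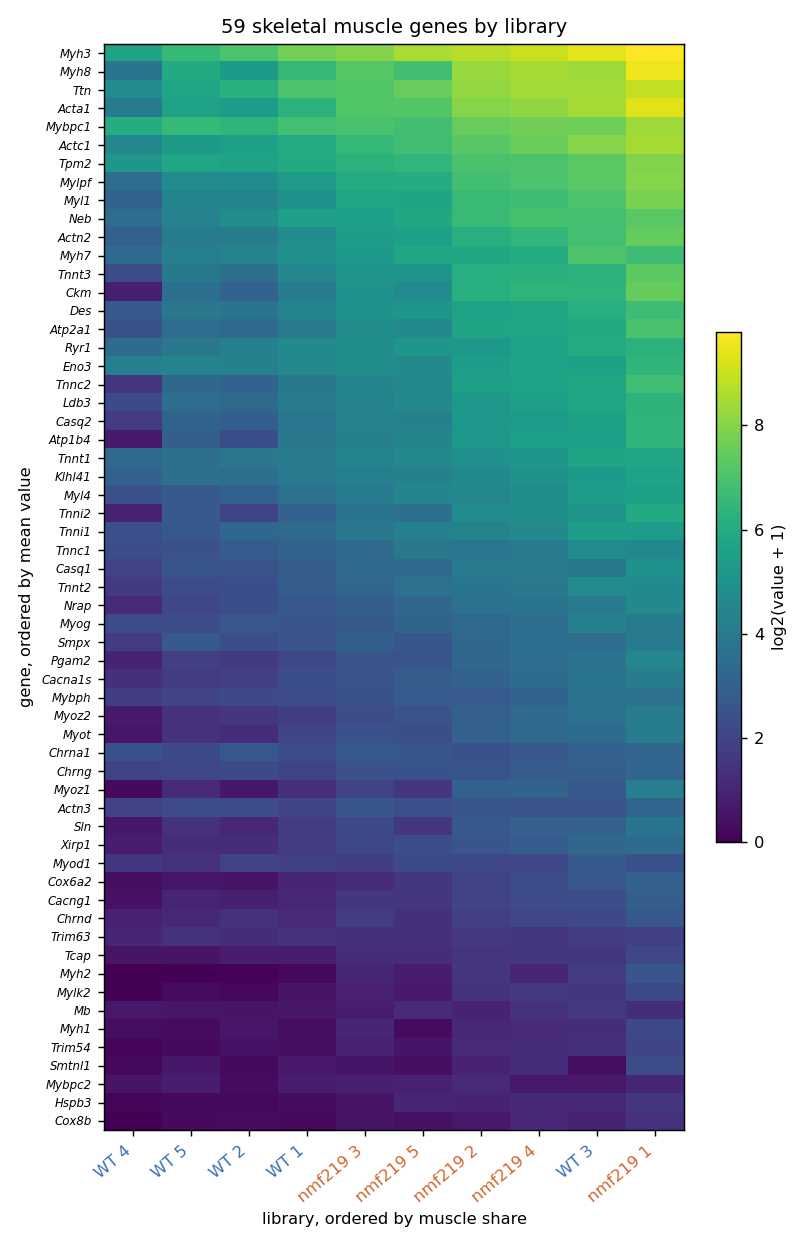
Heat map of log2(value + 1) for the 59 genes (rows, ordered by mean value) in the 10 libraries (columns, ordered by the share of reads in muscle genes; WT labels blue, nmf219 labels orange). Colour runs from dark at 0 to yellow at the highest values; most rows brighten from WT replicate 4 on the left to nmf219 replicate 1 on the right.

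Promoter sequences of 4 members are shown here because the members vary together; Myh3 and Myh8 carry the embryonic and neonatal myosin heavy chains, Mylpf the fast regulatory light chain and Chrna1 the receptor subunit at the motor endplate. Each is the 150 bases before the RefSeq start of the gene (GRCm38.p6), 5′ to 3′ on the gene's own strand. Capitals mark the E-box CAGCTG, the form to which MyoD and myogenin are known to bind, and a match to the MEF2 site. The positions are chr11:67078150-67078299 (plus strand) for Myh3, chr11:67276974-67277123 (plus) for Myh8, chr7:127211458-127211607 (plus) for Mylpf and chr2:73580339-73580488 (minus) for Chrna1.
Myh3: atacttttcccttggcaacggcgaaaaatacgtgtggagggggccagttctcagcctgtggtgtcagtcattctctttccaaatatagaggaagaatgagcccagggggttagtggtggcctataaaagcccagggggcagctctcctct
Myh8: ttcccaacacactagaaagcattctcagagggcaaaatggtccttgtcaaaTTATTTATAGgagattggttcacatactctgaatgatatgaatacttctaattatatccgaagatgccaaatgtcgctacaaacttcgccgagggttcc
Mylpf: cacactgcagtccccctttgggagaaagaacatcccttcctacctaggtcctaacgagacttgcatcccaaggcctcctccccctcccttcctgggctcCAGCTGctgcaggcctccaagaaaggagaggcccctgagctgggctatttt
Chrna1: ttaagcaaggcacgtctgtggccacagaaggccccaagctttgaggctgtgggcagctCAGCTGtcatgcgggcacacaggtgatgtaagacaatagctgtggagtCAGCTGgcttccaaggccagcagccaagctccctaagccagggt

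In the 150 bases shown, Chrna1 held 2 CAGCTG matches and Mylpf 1, while Myh3 held none and Myh8 held the MEF2 match. Over the 250 bases before the start, on both strands, 45 of the 59 members had 51 RefSeq windows. CAGCTG, which is 1 form of the general E-box CANNTG, occurred in 49.0% of those windows and in 13.0% of all 32851 windows. CANNTG occurred in 84.3% against 66.2%, the MEF2 site in 15.7% against 2.92%, the CArG box of serum response factor in 7.84% against 1.47%, and TATAAA in 17.6% against 12.4%. These are matches of letters, not sites of binding, and members without a window were Myod1, Neb, Sln, Mylk2, Actn3, Xirp1, Tnnt3, Chrnd, Cox6a2, Cacng1, Myot, Myoz1, Tnni2 and Tcap.

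Among the 5 myosin heavy chains, the motors of the thick filament, the embryonic chain Myh3 (chromosome 11, 67078300 to 67102291 in the table's coordinates) had the highest level. Its normalized value was 884, 426, 249, 507 and 370 in nmf219 replicates 1 to 5 and 210, 129, 693, 48.4 and 93.8 in WT replicates 1 to 5. The neonatal chain Myh8 (chromosome 11, 67277124 to 67308634) was at 753, 308, 146, 362 and 112 in nmf219 and at 90.9, 39.1, 334, 13.1 and 62.2 in WT. For both genes 4 WT libraries lay below all nmf219 libraries and WT replicate 3 lay inside their range. The nmf219 mean was 2.08-fold the WT mean for Myh3 and 3.11-fold for Myh8, which is 1.05 and 1.64 as the log2 of a ratio of means. The log2 fold changes given throughout are another quantity, the difference between the means of log2(value + 1), in which low libraries weigh more and the differences of weakly expressed genes shrink. They were 1.53 (SE 0.59) for Myh3 and 2.06 (SE 0.75) for Myh8.

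The slow chain Myh7, which is also the ventricular myosin of the fetal mouse heart, was at 107, 55.6, 37.0, 65.0 and 56.0 in nmf219 and at 30.3, 19.8, 131, 9.74 and 17.5 in WT. Its highest library was WT replicate 3, and its log2 fold change was 1.14 (SE 0.55). The fast chains of type IIa, Myh2, and type IIx, Myh1, were low, with highest values of 5.15 and 3.49, both in nmf219 replicate 1. Myh2 was listed at 0 in WT replicate 4, where 3 reads would be a value of 0.0716, so that nmf219 replicate 1 was at least 71.9-fold higher.

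Set per length of exon, Myh3 made up 65.3 to 79.1% of the 5 myosin heavy chains in nmf219 libraries and 67.8 to 78.8% in WT libraries. Myh8 made up 28.6, 25.3, 21.4, 25.2 and 12.4% in nmf219 replicates 1 to 5 and 16.8, 12.3, 17.9, 10.8 and 23.1% in WT replicates 1 to 5. Myh7 made up 5.56 to 8.41% in nmf219 and 7.66 to 10.98% in WT, and it was level with Myh8 only in WT replicate 4. Myh1 and Myh2 stayed under 0.5% in every library, and their order was not the same in all of them. Sequence shared between these genes limits the split: of the stretches of 50 exon bases, 24.8% of Myh1 and 22.7% of Myh2 also occur in another gene of the family, most of them in each other, against 15.6% of Myh7 (shared with the cardiac gene Myh6), 10.3% of Myh8 and 3.62% of Myh3.

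Of the 7 genes for myosin light chains and myosin-binding proteins, Mybpc1, the slow form of myosin-binding protein C, and Mylpf, the fast regulatory light chain, were the most abundant. Mybpc1 was at 322, 184, 127, 202 and 112 in nmf219 and at 115, 82.1, 199, 65.2 and 92.8 in WT. Mylpf was at 256, 113, 64.8, 128 and 66.0 in nmf219 and at 40.5, 26.3, 155, 10.3 and 25.7 in WT. Mylpf thus spread more widely between libraries, 24.8-fold from lowest to highest, than Mybpc1 at 4.94-fold. The log2 fold changes of the 7 genes ran from 0.33 for Mybpc2, the fast form of the binding protein, to 1.76 for Myl1, the fast essential light chain.

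The skeletal actin Acta1 and the cardiac actin Actc1, which fetal skeletal muscle also uses, form the thin filament. Acta1 was at 644, 257, 141, 283 and 144 in nmf219 and at 76.5, 41.4, 351, 14.9 and 48.8 in WT. Actc1 was at 352, 149, 89.7, 186 and 109 in nmf219 and at 63.6, 45.4, 254, 23.1 and 39.1 in WT. WT replicate 3 was second among the 10 libraries for each actin, and the other WT libraries lay below the lowest nmf219 library. Per kilobase of exon, Acta1 had the highest mean level of the 59 genes (a value of 130 per kb), ahead of Mylpf (83.4), Actc1 (81.0) and Myh3 (59.6). The α-actinins, which cross-link actin at the Z-disc, differed in spread: Actn2 varied 25.1-fold between libraries, and Actn3, the fast-fiber form, 2.80-fold.

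Tropomyosin and the 3 troponin subunits set the calcium response of the thin filament. The β-tropomyosin gene Tpm2 was at 244, 124, 77.7, 131 and 86.5 in nmf219 and at 61.6, 50.3, 158, 35.3 and 52.4 in WT. The fast troponin T gene Tnnt3 was at 161, 70.0, 34.3, 73.9 and 32.8 in nmf219 and at 22.1, 11.2, 76.8, 3.68 and 14.6 in WT. With all 10 libraries the ranges of the genotypes overlapped for each of the 8 genes of this group. Without WT replicate 3 the WT values of all 8 lay below those of nmf219. The same held for 48 of the 59 members and for 1.68% of all genes. The fast forms Tnnt3, Tnnc2 and Tnni2 had log2 fold changes of 1.87 (SE 0.65), 1.86 (SE 0.69) and 1.82 (SE 0.67), and the slow forms Tnnt1, Tnnc1 and Tnni1 had 0.89 (SE 0.40), 0.84 (SE 0.40) and 1.06 (SE 0.50). Cardiac troponin T, Tnnt2, which embryonic skeletal muscle also carries, had 1.10 (SE 0.48). Of the exon bases of Tnnc2, 74.0% overlap Ube2c on the other strand; whether reads were counted by strand is not stated, so reads in that overlap cannot be assigned to either gene.

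Titin (Ttn), the elastic filament of the sarcomere, was at 476, 292, 138, 346 and 180 in nmf219 and at 130, 72.6, 348, 26.04 and 52.9 in WT. Nebulin (Neb), which runs along the thin filament, was at 157, 99.1, 44.9, 122 and 58.0 in nmf219 and at 45.1, 27.8, 114, 10.4 and 19.4 in WT. WT replicate 3 exceeded nmf219 replicate 2 in both genes. Log2 fold changes were 1.59 (SE 0.59) for Ttn and 1.44 (SE 0.55) for Neb, and the 11 genes of giant filaments and Z-disc proteins ran from 0.70 for the titin cap gene Tcap to that of Ttn. The muscle intermediate filament gene Des had 1.48 (SE 0.53). Myoz1, the calsarcin of fast fibers, was 4.08-fold higher in the nmf219 mean, the largest ratio of means among the 59 genes, from 1.81 ± 2.14 (SD, n = 5) in WT to 7.39 ± 6.00 (SD, n = 5) in nmf219.

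In the calcium release and reuptake group, Atp2a1, the calcium pump of the sarcoplasmic reticulum in fast fibers, was at 124, 51.0, 27.8, 54.0 and 23.2 in nmf219 and at 14.8, 9.55, 61.0, 4.39 and 10.4 in WT. Ryr1, the release channel, was at 78.2, 36.0, 28.5, 49.4 and 34.4 in nmf219 and at 23.6, 18.6, 64.5, 10.1 and 14.1 in WT. WT replicate 3 was again the second highest library of each. The voltage sensor subunit gene Cacna1s differed by 1.01 on the log2 scale (SE 0.44), and the calcium-binding proteins of the reticulum, Casq1 and Casq2, had 1.14 (SE 0.37) and 1.67 (SE 0.62). Exons of Atp2a1 overlap Rabep2 on the other strand over 21.9% of their bases. Such overlaps were larger for Mybph (49.9%, with Adora1), Mb (27.6%, with Gm49540) and Trim54 (26.6%, with Gm15469).

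Muscle creatine kinase, Ckm, which buffers ATP, had the largest log2 fold change of the 59 genes, 2.33 (SE 0.85), and the widest spread of those above 0 in all libraries. It was at 175, 68.8, 30.8, 81.7 and 25.1 in nmf219 and at 16.4, 7.34, 82.4, 0.811 and 10.8 in WT. Between WT replicate 4 and nmf219 replicate 1 the difference was 216-fold, while the nmf219 mean was 3.24-fold the WT mean. Muscle enolase, Eno3, was at 84.4, 43.2, 27.3, 50 and 24.99 in nmf219 and at 22.4, 18.6, 47.8, 17.9 and 19.98 in WT. Its range was much narrower, at 4.71-fold, and its log2 fold change was 0.80 (SE 0.34). The oxygen store myoglobin, Mb, was low in all libraries, from 0.418 to 2.09, and highest in WT replicate 3.

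The genes that regulate myogenesis or build the endplate varied least. Myogenin (Myog), the factor that drives differentiation of myoblasts, was at 15.6, 9.48, 5.92, 10.9 and 7.85 in nmf219 and at 4.77, 5.37, 18.5, 3.70 and 3.94 in WT. Chrna1, the α subunit of the acetylcholine receptor of muscle, was at 8.09, 4.57, 5.62, 5.39 and 5.13 in nmf219 and at 3.94, 5.55, 7.27, 4.46 and 3.51 in WT. WT replicate 3 was the highest library for Myog, and the groups overlapped for Chrna1 also without it. Myod1, the factor that commits cells to the muscle lineage, had a log2 fold change of 0.22 (SE 0.23), against 0.59 (SE 0.37) for Myog and 0.20 (SE 0.17) for Chrna1. The 5 genes of this group differed by a median of 3.60-fold between the highest and lowest library, against 16.6-fold over all members.

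Of the genes for sarcomere turnover and chaperones, Klhl41, a kelch protein that stabilizes nebulin, was at 49.6, 24.6, 17.2, 31.0 and 18.6 in nmf219 and at 14.8, 11.2, 37.5, 7.30 and 11.1 in WT. The ubiquitin ligase gene Trim63 was at 2.57, 2.08, 1.59, 1.93 and 1.53 in nmf219 and at 1.63, 1.40, 2.35, 1.05 and 1.68 in WT. Trim63 had the smallest log2 fold change of the members, 0.17 (SE 0.14), and its groups overlapped with and without WT replicate 3. Smtnl1, a smoothelin-like protein, was an exception to the order of libraries: it was at 3.69 in nmf219 replicate 1 and at 0.317 in WT replicate 3, which is the second richest in muscle RNA.

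**Figure D3:**
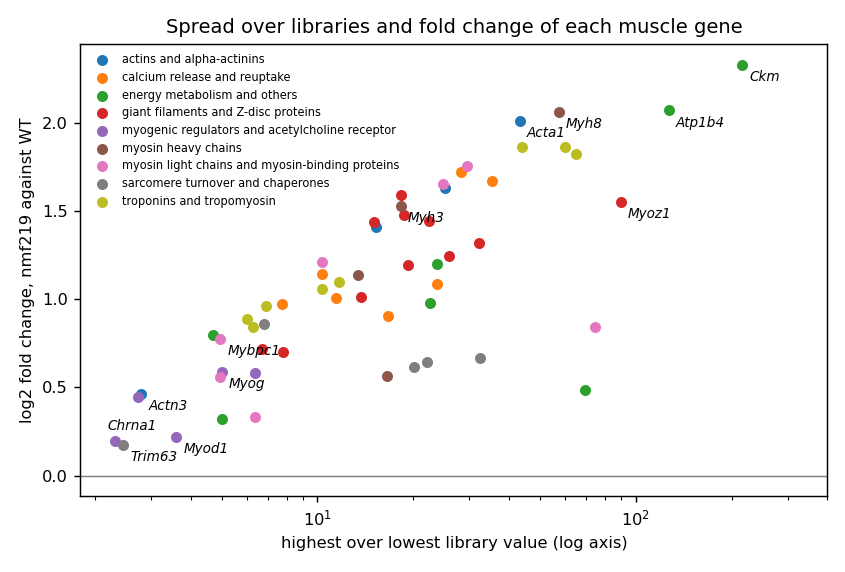
Ratio of the highest to the lowest library (horizontal, log axis) against the log2 fold change of nmf219 over WT on log2(value + 1) (vertical) for 58 members, coloured by role. Myh2 is left out because WT replicate 4 is at 0. All points lie above 0, from Trim63 (0.17) and Chrna1 (0.20) at the lower left to Ckm (2.33) at the upper right.

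Across all members the log2 fold change was positive for 59 of 59, against 46.9% of all 15472 genes. Its median was 1.02, with a range of 0.17 to 2.33, beside a median of -0.0055 over all genes. The ratio of means was at least 2 for 36 of 59 members, against 0.601% of all genes. With limma on log2(value + 1) and Benjamini-Hochberg adjustment over all genes, 0 of 59 members passed an adjusted p under 0.05, where 13 genes of the table did (0.084%). The smallest adjusted p of a member was 0.680. An unadjusted limma p under 0.05 was reached by 47 of 59 members, all higher in nmf219, against 3.88% of all genes that were higher with such a p. edgeR's quasi-likelihood test and DESeq2 on the recovered reads also called 0 of 59 (0.0711% and 0.407% of all genes), with 15 and 17 members at an unadjusted p under 0.05 (higher in 3.19% and 3.61% of all genes). The members are not independent of each other, since they vary with the same libraries. The counts of 59 and 47 include Cox8b, Mybpc2 and Smtnl1, and that of 36 includes Cox8b and Smtnl1. These 3 genes met the table's own limit, a value of 1 in 2 libraries, through nmf219 libraries alone and had to be higher there. A further 7 members also needed nmf219 libraries to meet it.

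By role, an unadjusted limma p under 0.05 was reached by 3 of 5 myosin heavy chains, 6 of 7 light chain and binding protein genes, 4 of 4 actins and α-actinins, 6 of 8 troponins and tropomyosin, 11 of 11 giant filament and Z-disc genes, 7 of 7 calcium genes, 4 of 5 turnover genes, 5 of 7 energy genes and 1 of 5 regulator and endplate genes. That last gene was Chrng, the fetal γ subunit of the acetylcholine receptor, with a log2 fold change of 0.44 (SE 0.20). All genes counted here were higher in nmf219, and 3.88% of all genes in the table were higher with such a p. These counts are descriptions, because none of the genes passed after adjustment.

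The authors' deposited table gives an FDR under 0.05 for 55 of the 59 members, all higher in nmf219, against 3.26% of all genes in either direction and 2.55% that were higher. In the authors' deposited table Myh8 has a log2 fold change of 1.64 and Ckm one of 1.70, and the 4 members outside its calls are Trim63, Myod1, Chrna1 and Mb. The test behind the authors' values is not given in the sources used here.

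WT replicate 3 decided whether the groups overlapped for most members. With all 10 libraries, the ranges of the genotypes were separate for 0 of 59 members, with nmf219 higher in 0.388% of all genes. Without WT replicate 3 they were separate for 48 of 59, each higher in nmf219, against 1.68% of all genes. The test still called 0 members without it, with a smallest limma adjusted p of 0.125 and a median log2 fold change of 1.41. Without nmf219 replicate 1, the richest library, the median was 0.80, and 15 members had an unadjusted limma p under 0.05, against 2.22% of all genes that were higher with such a p. That count was 25 without nmf219 replicate 4 (2.53% of all genes), 22 without WT replicate 2 (2.35%), 21 without WT replicate 4 (2.26%) and 25 without WT replicate 5 (7.81%). With all 10 libraries it was 47 (3.88%). It was 32 without nmf219 replicate 2 and 34 without WT replicate 1. Leaving out nmf219 replicate 5, nmf219 replicate 3 or WT replicate 3 raised it to 49, 50 and 56. For the refits in the last 2 sentences the share of all genes is not given here. Myh3, for example, was 4.06-fold higher in the nmf219 mean without WT replicate 3 and 1.65-fold without nmf219 replicate 1. Within the lower range of description numbers the median was 1.53 and within the higher range 0.67, with 59 of 59 members higher in nmf219 in each, and the unadjusted limma p was under 0.05 for 55 and 0 members, where 2.6% and 0.814% of all genes were higher with such a p.

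The members low in WT were near the table's own limit. Of the 15472 genes, 15469 reach a value of 1 in 2 or more libraries. That level was met in every library by 37 members and in 5 libraries or more by 52. The other 7 were Cox8b, Mb, Mybpc2, Mylk2, Hspb3, Smtnl1 and Trim54. A total of 10 members were below 1 in each WT library other than replicate 3, and 7 of these were at 1 or more in WT replicate 3. With only 1 WT library at that level, these 7 also needed nmf219 libraries to meet the table's limit of 2. The other 3, Cox8b, Mybpc2 and Smtnl1, were below 1 in all 5 WT libraries, so that they met the table's limit through nmf219 libraries alone and had to be higher there. All 10 are among the members counted above.

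Other skeletal muscle genes, taken from 6 lists of sarcomere, excitation-contraction, endplate, myoblast, membrane and metabolic genes, followed at a smaller size. Of 90 such genes 79 were listed, 75 with a positive and 4 with a negative log2 fold change, with a median of 0.38. None of the 79 passed limma, edgeR or DESeq2 after adjustment, and 31 had an unadjusted limma p under 0.05, all higher in nmf219, beside the 3.88% of all genes that were higher with such a p. The 28 listed sarcomere genes had a median of 0.91, and the 7 endplate genes one of 0.16. Myom2, an M-band protein, was at 20.9 to 63.4 in nmf219 and at 6.90 to 42.8 in WT, and Xirp2, a Xin actin-binding protein, at 5.62 to 12.0 and 2.08 to 8.25. Trdn, which anchors calsequestrin to the release channel, was at 3.06 to 10.2 in nmf219 and 0.453 to 5.55 in WT.

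The more abundant genes named from these lists differed in how far they spread. Atp2a2, the calcium pump of heart, slow fibers and most other cells, was at 221 to 255 in nmf219 and at 210 to 272 in WT. The phosphofructokinase gene Pfkm was at 84.4 to 110 in nmf219 and at 83.0 to 92.4 in WT. Mef2c, a MEF2 transcription factor, was at 90.9 to 125 in nmf219 and at 66.0 to 116 in WT. The muscle glycogen phosphorylase Pygm was at 11.3 to 57.6 in nmf219 and at 4.63 to 25.9 in WT. The fusion factor listed under its older symbol Tmem8c was at 2.61 to 7.55 in nmf219 and at 1.10 to 5.52 in WT. Cav3, the caveolin of the muscle membrane, was at 3.01 to 10.4 and at 0.620 to 6.54, and the laminin receptor subunit Itga7 at 11.5 to 21.4 and at 4.75 to 14.5. Musk, the receptor kinase of the endplate, was low, at 0.887 to 2.09 in nmf219 and 0.382 to 1.36 in WT. In all of these genes the range of WT reached into that of nmf219.

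Markers of other tissues were read beside these results. Of 6 cardiac markers only Myh6, Ryr2 and Tnni3 were among the listed genes, with a summed value of 7.34 to 10.7 in nmf219 and 6.16 to 8.36 in WT, and Myh6 was at 0.538 to 1.78. All 5 tendon markers were listed, summing to 242 to 375 in nmf219 and 122 to 340 in WT. Tenomodulin (Tnmd), a membrane protein of tendon, was at 60.6, 56.8, 56.5, 48.4 and 45.8 in nmf219 and at 30.7, 7.61, 38.6, 2.94 and 30.7 in WT, with the 2 lowest values in WT replicates 2 and 4. All 5 nmf219 values of Tnmd lay above all WT values, as they did for 0.388% of all genes. The tendon matrix gene Thbs4 was at 28.0 to 52.2 in nmf219 and at 3.99 to 34.4 in WT. The tendon factor Scx, at 11.2 to 15.2 and 10.4 to 12.3, did not follow the muscle genes. None of the 5 tendon markers passed limma, edgeR or DESeq2 after adjustment. An unadjusted limma p under 0.05 was reached by 2, both higher in nmf219, beside the 3.88% of all genes that were higher with such a p.

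Smooth muscle markers (6 of 6 listed) summed to 147 to 205 in nmf219 and 114 to 158 in WT, with 6 of 6 higher in the nmf219 mean. Cartilage markers of the otic capsule (5 of 5 listed) summed to 13988 to 19402 in nmf219 and 14519 to 21423 in WT, with 5 of 5 lower in the nmf219 mean. Hair cell markers (6 of 6) summed to 83.8 to 111 and 74.4 to 118, nerve and Schwann cell markers (5 of 6 listed) to 217 to 232 and 202 to 231, brain markers (4 of 5 listed) to 118 to 139 and 142 to 154, and brown fat markers (2 of 5 listed) to 6.92 to 9.46 and 6.205 to 10.4. Erythroid markers (7 of 8 listed) summed to 4975 to 7668 in nmf219 and 2560 to 9690 in WT. The log2 fold change was also positive for 6 of 6 hair cell, 5 of 5 tendon, 6 of 7 erythroid and 2 of 3 cardiac markers. It was positive for 2 of 5 nerve and Schwann cell, 1 of 4 brain and 1 of 2 brown fat markers, and for 46.9% of all genes. Brain marker sums of nmf219 and WT did not overlap; the part of any of these tissues in the muscle result was not tested.

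A ratio of isoforms within a library cancels an equal change of both genes, and 10 pairs were compared between genotypes. None passed a two-sided exact permutation test of 5 against 5 libraries after adjustment over the 10 pairs; the smallest p this test allows is 0.00794. An unadjusted exact p under 0.05 was found for 3 pairs. The ratio of slow to fast troponin T, Tnnt1/Tnnt3, was -1.01 ± 0.42 on the log2 scale in nmf219 and 0.0083 ± 0.80 in WT (SD, n = 5), a difference of -1.02 (SE 0.40, exact permutation p = 0.0238). Slow over embryonic myosin, Myh7/Myh3, differed by -0.36 (SE 0.11, exact permutation p = 0.0317). The adjusted p of the exact permutation test was 0.106 for Tnnt1/Tnnt3 and for Myh7/Myh3, and in both the mean ratio of the slow form to the other was lower in nmf219. A ratio can still differ with the amount of muscle RNA. Tnnt1/Tnnt3 was 1.29 in WT replicate 4, the poorest library in muscle RNA, and -1.56 in nmf219 replicate 1, the richest. WT replicate 3, the second richest, was at -0.59, above nmf219 replicate 2 at -1.21, which held less. The part of muscle amount in the ratios was not tested.

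For Myh8/Myh3, neonatal over embryonic myosin, the log2 ratio was -0.23, -0.47, -0.77, -0.48 and -1.72 in nmf219 replicates 1 to 5 and -1.20, -1.72, -1.05, -1.88 and -0.59 in WT replicates 1 to 5. nmf219 replicate 5 stood with the low WT libraries, and WT replicate 5 with the other nmf219 libraries. The difference was 0.55 (SE 0.35, exact permutation p = 0.151, adjusted p = 0.176). Slow over fast troponin I, Tnni1/Tnni2, differed by -0.94 (SE 0.45), and slow over fast troponin C, Tnnc1/Tnnc2, by -1.08 (SE 0.50), both with an exact permutation adjusted p of 0.136. The embryonic over fast light chain ratio Myl4/Myl1 differed by -0.50 (SE 0.25) and Myoz2/Myoz1, slow over fast calsarcin, by -0.64 (SE 0.33). Casq2/Casq1 differed by 0.54 (SE 0.35), and Mybpc1/Mybpc2 by 0.036 (SE 0.42), a value whose sign changed without some of the libraries.

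**Figure D4:**
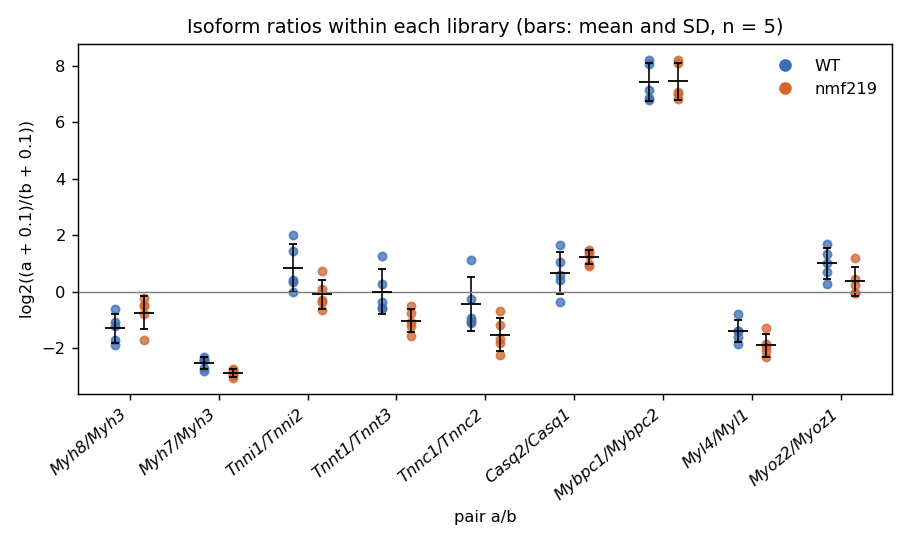
Log2 ratio of the values of 2 genes in the same library, each plus 0.1 (vertical), for 9 pairs (horizontal); points are libraries, WT blue and nmf219 orange, and bars are the mean and SD of 5. The nmf219 mean lies below the WT mean for Tnnt1/Tnnt3 (-1.01 against 0.0083) and Myh7/Myh3 (-2.88 against -2.52), and the points of the genotypes overlap in every pair shown.

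How many pairs passed turned on nmf219 replicate 5. Without that library 8 of the 10 pairs passed, each with an exact permutation adjusted p of 0.0397 and nmf219 minus WT differences of 0.80 for Myh8/Myh3, -1.14 for Tnni1/Tnni2, -1.16 for Tnnt1/Tnnt3 and -1.29 for Tnnc1/Tnnc2. Without both nmf219 replicate 5 and WT replicate 4, a choice made after the data were seen, 0 of 10 passed and the smallest exact permutation adjusted p was 0.0714. With 4 against 4 libraries the smallest exact p is 0.0286, and 6 of the 10 pairs would have to reach it for an adjusted p under 0.05. The differences in that setting were 0.65 for Myh8/Myh3, -0.84 for Tnni1/Tnni2, -0.84 for Tnnt1/Tnnt3 and -0.89 for Tnnc1/Tnnc2. In both settings the signs of the 10 pairs were as with all 10 libraries.

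nmf219 replicate 5 and WT replicate 4 were also the libraries with the most RNA of Hbb-y, the embryonic β-like globin made by primitive red cells and lost as the embryo grows older. Hbb-y was at 6.15, 4.28, 3.66, 4.15 and 33.0 in nmf219 and at 11.4, 15.8, 20.5, 44.4 and 3.10 in WT. No library lay between 6.15 and 11.4, and 4 of the 5 libraries below that gap were nmf219. The isoform ratios were therefore set against log2(Hbb-y + 0.1) over the 10 libraries, a comparison chosen after the values were seen. Because Hbb-y was chosen for the libraries that stood out in the ratios, the correlations describe these 10 libraries and carry no p. WT replicate 4, the highest in Hbb-y, was also the poorest in muscle RNA, with 0.0390% of the reads in listed genes.

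Myh8/Myh3 was lower where Hbb-y was higher, with Pearson's r = -0.874 and Spearman's rho = -0.733. Without WT replicate 4 and nmf219 replicate 5, the libraries farthest from the median of Hbb-y, r was -0.739 and rho -0.476. Both measures were positive for Myl4/Myl1 (r = 0.840, rho = 0.721), Myoz2/Myoz1 (0.831, 0.709) and Tnni1/Tnni2 (0.802, 0.733). Without the same libraries r was 0.662, 0.781 and 0.674, and rho was 0.452, 0.548 and 0.524. Tnnc1/Tnnc2 (r = 0.729, rho = 0.612) and Tnnt1/Tnnt3 (0.667, 0.455) fell to r = 0.492 and 0.457 and rho = 0.286 and 0.167 without them. Myh7/Myh3 (r = 0.490, rho = 0.455), Casq2/Casq1 (-0.442, -0.224) and Mybpc1/Mybpc2 (-0.048, 0.055) had an r closer to 0 over the 10 libraries.

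Genotype and Hbb-y moved together, so the same values were also taken as deviations from the mean of each genotype. Over the 10 libraries r was then -0.849 for Myh8/Myh3, 0.816 for Myl4/Myl1, 0.800 for Myoz2/Myoz1 and 0.766 for Tnni1/Tnni2, with rho of -0.673, 0.527, 0.685 and 0.552. Without WT replicate 4 and nmf219 replicate 5 these r were -0.537, 0.347, 0.618 and 0.426 and the rho -0.143, -0.024, 0.429 and 0.143. For Tnnt1/Tnnt3 and Tnnc1/Tnnc2, r within genotypes went from 0.588 and 0.668 to -0.076 and 0.013. Within genotypes the r of each of these 6 pairs was thus smaller in size without those 2 libraries. As deviations from the mean of each range of description numbers, r was -0.848 for Myh8/Myh3 and 0.820 for Myoz2/Myoz1.

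Within nmf219, replicate 5 had the highest Hbb-y and a Myh8/Myh3 log2 ratio of -1.72, and the other 4 were at -0.77 to -0.23. Among those 4 the ratio rose with Hbb-y, from -0.77 in replicate 3 (Hbb-y 3.66) to -0.23 in replicate 1 (6.15). Within WT, replicate 5 had the lowest Hbb-y and a ratio of -0.59, and the other 4 were at -1.88 to -1.05. WT replicate 3, with Hbb-y at 20.5, had -1.05. That lay above replicates 1 (-1.20) and 2 (-1.72), which had less Hbb-y.

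**Figure D5:**
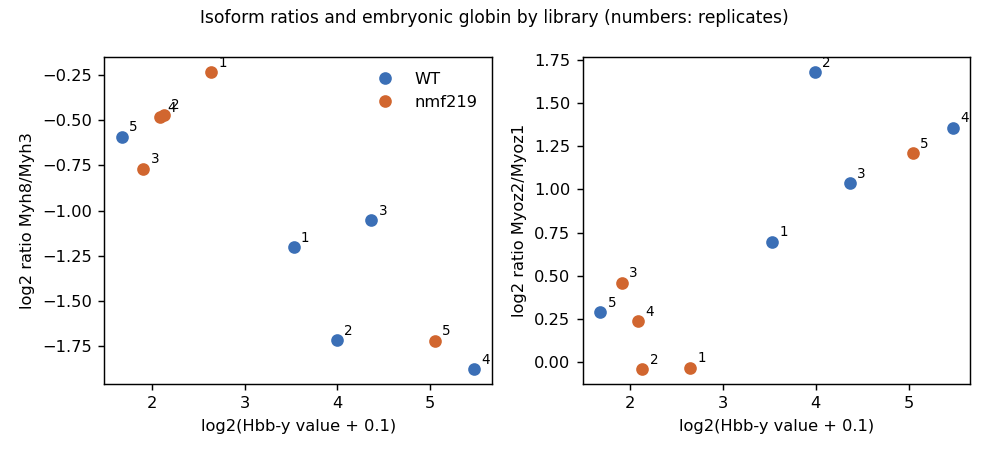
Log2(Hbb-y value + 0.1) (horizontal) against the log2 ratio Myh8/Myh3 (left) and Myoz2/Myoz1 (right) in the 10 libraries; WT blue, nmf219 orange, numbers are replicates. On the left the highest ratio is that of nmf219 replicate 1 (-0.23) and the lowest that of WT replicate 4 (-1.88). The libraries with less Hbb-y than nmf219 replicate 1 lie below it, at -0.77 to -0.47. On the right nmf219 replicate 5 lies among the WT libraries of high Hbb-y.

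The 2 libraries richest in muscle RNA, WT replicate 3 and nmf219 replicate 1, had different makeups. WT replicate 3 had the higher value for 8 of 59 members: Mb, Myod1, Myh7, Myog, Tnnc1, Tnni1, Mybph and Tnnt2. The median ratio of WT replicate 3 to nmf219 replicate 1 was 0.639 over all members. For 12 members of fast fibers it was 0.504, with a range of 0.323 to 0.607, and for 7 of slow fibers it was 0.934, with a range of 0.559 to 1.22. These classes are textbook ones set after the data were seen, and with 1 library on each side the difference has no replicate check.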

How the data were processed

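RNA-seq of 5 WT and 5 nmf219/nmf219 inner ear samples was read from 1 deposited table. Per the labels' protocols, tissue was frozen, RNA taken up in Trizol, and libraries made by standard Illumina methods; the aligner, the counter with its strand setting and the build were not given in the sources used here. The table holds normalized values (signal) for each library, called counts_cpm per the file headers: whole reads times 1 step per library (100% whole within 0.01 read). Its other columns, also per the file headers, are the authors' log2 fold change, signed fold change (score), p-value and FDR. Coordinates are those of the table.

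Members and lists were chosen with earlier results of these data known. Because the values are normalized, limma (3.58.1, trend) on log2(value + 1) was the main test, over 15472 genes, genotype only, in place of edgeR for counts. edgeR (4.0.16) and DESeq2 (1.42.0) were run on recovered reads. Isoform ratios used exact permutation tests. Scripts were tested on simulated data. Libraries of a genotype had a pairwise chi-square per degree of freedom of 7.93 to 61.1, where sampling noise alone gives about 1, so none was counted as a repeat. Exon lengths and overlaps came from GENCODE M21. Per-library values are given for the 2 most abundant members of each role and those of largest and smallest change, and ranges for up to 3 genes of smallest p and the most abundant of other lists; further marker genes were named after their values were seen. Groups came from sample titles. A few of the values computed are not reported here, although every total and adjustment includes them.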

Additional observations from a re-analysis of the deposited data

Results flagged for a closer look

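Within the 5 WT libraries, replicate 3 stood apart for 14 of 70 measures examined (the share of reads, each member and each isoform ratio). The gap from WT replicate 3 to the next library, divided by the whole WT range, exceeded Dixon's limit of 0.71 for 5 samples. Chance flags about 1 in 20 such groups, and the members are not independent of each other. For the share of listed reads in the 59 genes the gap was 0.769 of the range. On log2(value + 1) it was 0.885 for Myh2, 0.867 for Mb, 0.806 for Chrng, 0.787 for Hspb3, 0.786 for Myog, 0.776 for Eno3 and 0.767 for Mybph. It was 0.749 for Cox8b, 0.742 for Tcap, 0.737 for Cox6a2, 0.720 for Trim54, 0.720 for Tnnt1 and 0.712 for Mylk2. In each of them WT replicate 3 was the highest WT library. No measure passed the limit in the nmf219 libraries.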

How the results depend on the processing

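The log2 fold change of every member kept its positive sign in every alternative run on it, and 0 members were called in each. All 59 were in 10 of the 11 alternatives and in the 10 refits without 1 library; requiring a value of 1 in 5 libraries left 52. The median over the members was 0.80 to 1.41 without 1 library. Over all genes, 13 were called, against 63 with DESeq2, 1 within the lower and 2 within the higher range of description numbers, and 7 to 18 without 1 library, with fewer samples in the last 3 settings. With the replicate block 2 genes and 0 members were called. The numbers pair no samples by the labels, and same-numbered libraries deviated together with correlations of 0.04, 0.13, -0.45, -0.27 and -0.47 for replicates 1 to 5. Members with separate genotype ranges numbered 0 to 48 without 1 library: 1 without nmf219 replicate 4 and 48 without WT replicate 3. Isoform ratios past the test numbered 0 to 8 without 1 library, 8 without nmf219 replicate 5 and 0 without any other. Paired over replicate numbers, the exact test cannot go below 0.0625, so it could not pass. The Mybpc1/Mybpc2 difference of 0.036 reversed to -0.082 with a pseudocount of 0.01 and -0.0137 within the lower range, and ran from -0.15 to 0.24 without 1 library; the cause was not tested. Spread between libraries limited these comparisons; depth limited only genes such as Myh2, where 3 reads are a value of 0.0716.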
